A study of Mus musculus with 20 samples.

Results

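The question was whether deleting Cpt2 from the liver shifts histone H3 lysine 27 acetylation (H3K27ac) differently in mice that have Ppara and in mice that lack it. H3K27ac was mapped by chromatin immunoprecipitation and sequencing in 8 livers, 2 from each of 4 genotypes. All came from 9-week-old male C57BL/6 mice fasted for 24 hours: wild type (WT), a liver knockout of Cpt2 (Cpt2 L-/-), a knockout of Ppara that the labels do not limit to the liver (Ppara -/-), and the double knockout (Cpt2 L-/- ; Ppara -/-, here DKO). How Cpt2 was deleted from the liver is not given in the sources used here, nor whether the mice were littermates. Of 65776 consensus intervals of H3K27ac, 18281 carried a called peak in all 8 libraries, and these are the intervals ranked here. The level of an interval was the log2 of its highest peak fold (height of the peak over local background, the authors' value), centred on the median of its library. Its interaction value was DKO minus Ppara -/-, less Cpt2 L-/- minus WT, so a negative value means that Cpt2 loss moved the mark further down, or less far up, when Ppara was absent. No liver enters both Cpt2 effects, each of which compares 2 livers with 2, so p-values measure only the spread between these livers. A library held 44454 to 48929 H3K27ac peaks, with a median fold of 9.9 to 14.0 over the ranked intervals, and its depth in reads is unknown.

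Cpt2 is an enzyme of the inner mitochondrial membrane that long-chain fatty acids need in order to enter β-oxidation. Ppara is a nuclear receptor activated by fatty acids, which in fasting switches on genes of fatty acid uptake, oxidation and ketone body production. H3K27ac marks active enhancers and promoters. Bulk liver holds several cell types, so less mark per cell and fewer cells with the mark cannot be told apart.

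The sequences that carry one result of the ranking are shown first. The promoters of Abca1, Fasn and Srebf1 lay inside intervals of its upper end, and each held the letters GGTTACTNNCGGTCA on the strand opposite to the gene, a form of the direct repeat bound by liver X receptors, the sensors of oxysterols. This pattern was read from these 3 promoters after they had been ranked, as the 15-base stretch opening with the receptor half-site TGACC on the gene's strand that agreed at most positions (13), so their sharing it is how it was chosen. Without that half-site the most alike stretch agreed at 14 positions and lay elsewhere in Srebf1. In RefSeq's promoter table (GRCm38.p6, 250 bases before to 50 after each start site), which holds 32851 promoters, it occurred in 3 promoters (0.00913%), those of the same 3 genes. Below, the 250 bases before the start are written 5′ to 3′ on the gene's strand. Capitals mark the pattern read from the 3 promoters, as it reads on the gene's strand, in the first 3, and the E-box CACGTG in Abca1. They also mark the CCAAT box, on either strand, in Fasn (where 2 of its 3 matches overlap), Srebf1 and Pex16. The Pex16 promoter lay in an interval of the class higher without Ppara, defined below.
Abca1, chr4:53159896-53160145, minus strand: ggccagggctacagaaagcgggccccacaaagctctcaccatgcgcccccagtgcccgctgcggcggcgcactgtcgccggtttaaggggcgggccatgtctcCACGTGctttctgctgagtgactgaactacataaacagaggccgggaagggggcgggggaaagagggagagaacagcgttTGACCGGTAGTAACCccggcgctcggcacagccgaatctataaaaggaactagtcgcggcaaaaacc
Fasn, chr11:120824548-120824797, minus strand: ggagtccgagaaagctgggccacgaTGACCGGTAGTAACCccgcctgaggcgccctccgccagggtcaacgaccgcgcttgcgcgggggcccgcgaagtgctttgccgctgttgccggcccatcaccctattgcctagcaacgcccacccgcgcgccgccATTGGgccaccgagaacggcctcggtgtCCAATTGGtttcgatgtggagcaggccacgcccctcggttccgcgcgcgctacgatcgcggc
Srebf1, chr11:60210472-60210721, minus strand: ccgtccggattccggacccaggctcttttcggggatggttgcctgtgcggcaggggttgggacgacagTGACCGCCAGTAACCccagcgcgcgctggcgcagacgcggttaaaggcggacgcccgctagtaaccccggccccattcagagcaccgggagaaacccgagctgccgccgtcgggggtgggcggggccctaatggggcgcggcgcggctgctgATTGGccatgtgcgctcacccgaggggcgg
Pex16, chr2:92374426-92374675, plus strand: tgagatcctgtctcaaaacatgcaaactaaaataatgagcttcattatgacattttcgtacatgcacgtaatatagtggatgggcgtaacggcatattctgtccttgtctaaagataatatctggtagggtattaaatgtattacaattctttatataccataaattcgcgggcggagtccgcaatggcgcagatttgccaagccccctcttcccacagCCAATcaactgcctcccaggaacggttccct

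Across all intervals the effect of Cpt2 loss was spread more widely with Ppara than without it. Cpt2 L-/- differed from WT at 1064 intervals that were higher (5.82% of 18281) and 1405 that were lower (7.69%), by limma with Benjamini-Hochberg adjusted p under 0.05, and 5606 (30.7%) had an unadjusted p under 0.05. DKO differed from Ppara -/- at 1 interval (0.00547%), which was lower, and 2569 intervals (14.1%) had an unadjusted p under 0.05. That interval lies in Slc2a9, a urate transporter, and is named because it was the only 1 called. Its folds were 18.7 and 29.8 in WT, 15.1 and 15.3 in Cpt2 L-/-, 17.6 and 20.4 in Ppara -/-, and 3.18 and 4.72 in DKO. DKO was the lowest genotype, at -2.60 against Ppara -/- (SE 0.25, adjusted p = 0.00123). Cpt2 L-/- fell by 0.86 against WT (adjusted p = 0.0377), and the interaction was -1.74 (SE 0.35, adjusted p = 0.0882).

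A shift of at least 1 on the log2 scale was seen at 1393 intervals with Ppara and at 302 without it. The SD over intervals was 0.559 with Ppara and 0.398 without. Of the 2469 intervals called with Ppara, 1869 had the same sign without it. Pearson's r of the 2 effects was 0.336 over intervals, which share libraries and are not independent. The count with Ppara was 450 without WT replicate 2, 167 without Cpt2 L-/- replicate 1 and 937 without Cpt2 L-/- replicate 2. Without centring it was 1961 higher and 576 lower, as the median of all intervals moved from -0.03 to 0.19. The smallest peak of a library, which MACS2 sets by its fragment length by default, was 198 to 210 bases in the 4 livers with Cpt2 and 217 to 223 bases in the 4 without. Entered as a covariate it left 0 calls with Ppara and 0 without, where 1418 and 1642 intervals had an unadjusted limma p under 0.05. This width follows the Cpt2 genotype without overlap, so the covariate cannot separate a technical difference from Cpt2 loss.

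The interaction itself passed the test at 1 of 18281 intervals (0.00547%), and 2771 (15.2%) had an unadjusted p under 0.05. Interaction values ran from -2.43 to 2.39 with a median of 0.03 and quartiles of -0.35 and 0.39, against a median standard error of 0.374. Values of at least 1 were found at 669 intervals (3.66%) and of -1 or less at 755 (4.13%), without centring at 929 and 557, and without WT replicate 1 at 1309 and 1275. The sign was the same in all 16 choices of 1 liver per genotype at 5520 intervals (30.2%). With 2 livers per genotype, nearly all values described below are therefore sizes that did not pass the test of the difference.

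**Figure D1:**
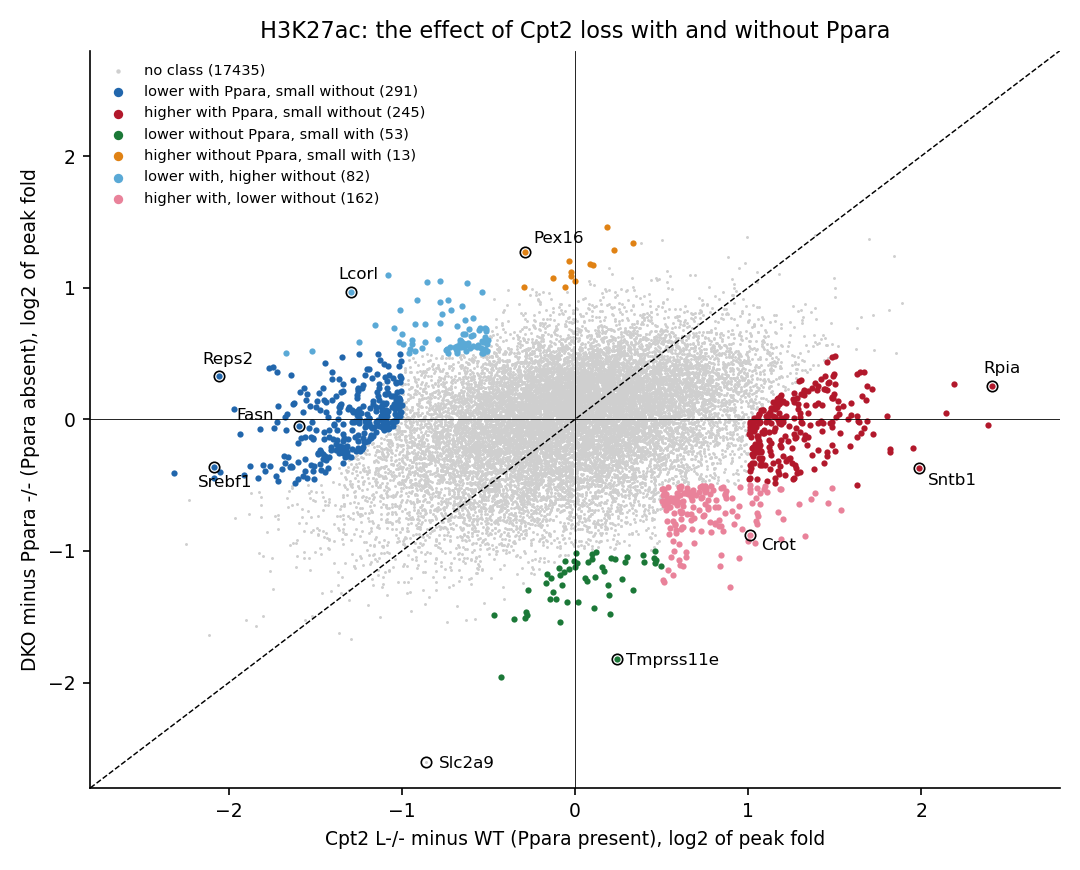
Each of the 18281 ranked intervals is a point: across, Cpt2 L-/- minus WT; up, DKO minus Ppara -/-, both in log2 of the centred peak fold. Colours give the 6 classes by size with their counts, the dashed line marks equal effects, and circles mark named intervals. The cloud is wider across than up. The Rpia interval, the only 1 whose interaction passed the test, lies far right near the horizontal line, and the Slc2a9 interval is the lowest point.

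The interval that passed lay at chr6:70812513-70815280 (mm10), 21721 bases from Rpia, which encodes an isomerase of the pentose phosphate pathway, and over the start site of the predicted gene Gm30331. Its peak folds were 3.78 and 4.62 in WT, 27 and 24.9 in Cpt2 L-/-, 22.8 and 25.1 in Ppara -/-, and 35.2 and 35.4 in DKO. WT alone was low, and the 6 livers lacking either gene did not overlap it. Cpt2 L-/- minus WT was 2.41 (SE 0.20, adjusted p = 0.000171), DKO minus Ppara -/- was 0.25 (SE 0.20, adjusted p = 0.582), and the interaction was -2.16 (SE 0.28, limma adjusted p = 0.0421). The call held without WT replicate 1 (adjusted p = 0.0245) and was lost without any of the other 7 livers (0.0594 to 0.187) and with the width covariate (0.201), while the value stayed between -2.62 and -2.06. H3K4me1, the mark of enhancers, was measured there in the same livers with folds of 5 and 5.88 (WT), 11.1 and 5.94 (Cpt2 L-/-), 5.25 and 11.9 (Ppara -/-) and 9.09 and 10.0 (DKO), and its groups overlapped. An H3K9ac peak was called there in the Cpt2 L-/- liver and not in the WT liver, with 1 library of each.

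Intervals were classed by the size of the 2 effects. A class on the side with Ppara needed an effect of at least 1 between Cpt2 L-/- and WT livers that did not overlap, under 0.5 between DKO and Ppara -/-, and an interaction of at least 1 in size; the side without Ppara mirrored it. The opposed classes needed effects of at least 0.5 in opposite directions. With Ppara, 291 intervals (1.59%) were lower and 245 (1.34%) higher. Without Ppara, 53 (0.29%) were lower and 13 (0.0711%) higher, and without centring these were 15 and 75. The counts with Ppara were 191 lower and 295 higher without centring. The 53 became 184 without DKO replicate 1, and the 13 became 56 without Ppara -/- replicate 1. The opposed classes held 162 intervals higher with Ppara and lower without (0.886%), and 82 of the reverse kind (0.449%). Without centring these were 66 and 227, so which kind was larger depended on the scaling. Membership of a class is a matter of size, since the test of the difference passed in 1 interval of the 846 (4.63% of all). There were 1690 such intervals without WT replicate 1 and 1311 without Cpt2 L-/- replicate 2, and with the width covariate 318 of the 846 kept their class.

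The 2 ends of the ranking, 1% or 183 intervals each, were made of different classes. The upper end reached down to 1.29 on the log2 scale, where the next interval outside was also at 1.29, and it held 123 intervals lower with Ppara, 37 lower with and higher without, 2 higher without, and 21 of no class. In the lower end, from -2.43 to -1.42, 78 were higher with Ppara, 85 were higher with and lower without, 16 were lower without, and 4 were of no class. Effects on the side with Ppara thus filled most of the upper end. In the lower end opposed effects (85) and those higher with Ppara (78) were close in number. Over all ranked intervals, leaving out the centring took the class higher with and lower without from 162 to 66. It took the class higher with Ppara from 245 to 295.

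**Figure D2:**
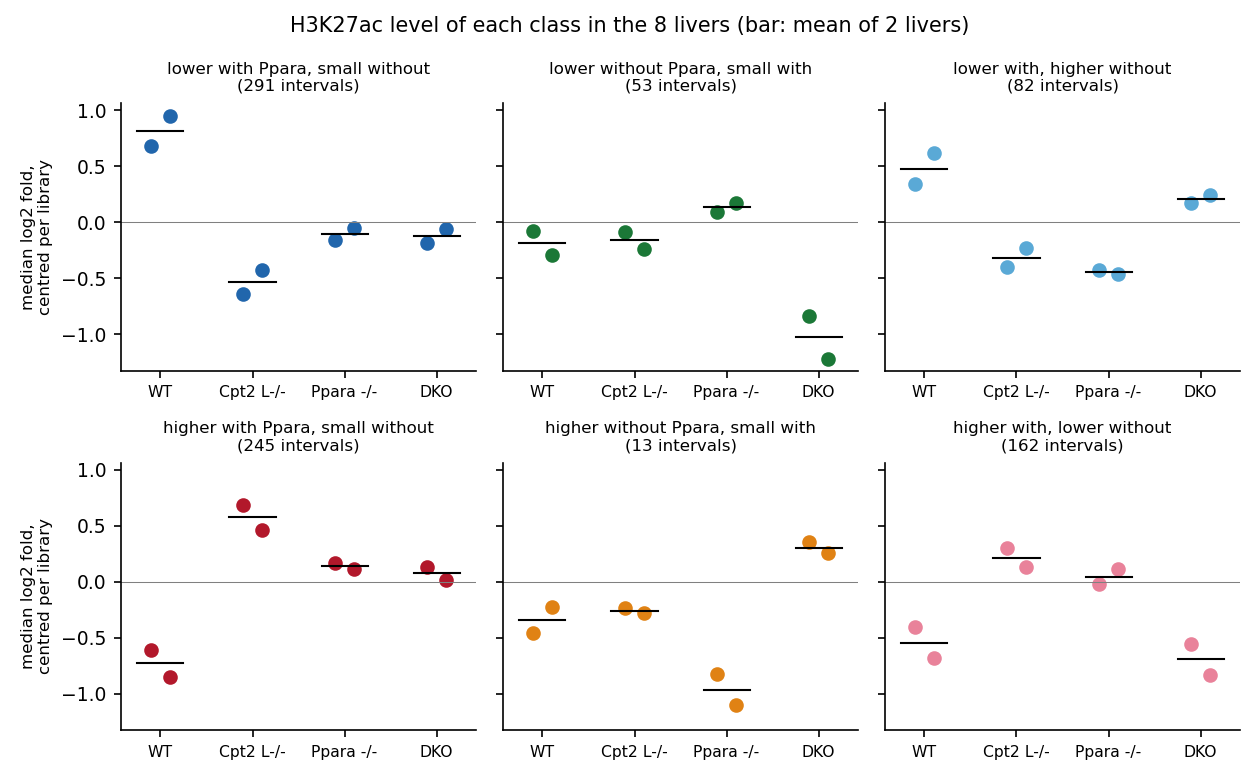
Median centred log2 fold of each class (6 panels) in each of the 8 livers (points; bars, mean of 2 livers). In the 2 classes on the side with Ppara (left), WT sits apart from the 3 knockout genotypes. In those on the side without Ppara (middle) DKO stands apart when lower, and DKO and Ppara -/- part when higher. In the opposed classes (right) the single knockouts sit together and DKO is nearer WT.

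In the class lower with Ppara, the median centred level was 0.68 and 0.95 in the 2 WT livers, -0.64 and -0.42 in Cpt2 L-/-, -0.16 and -0.05 in Ppara -/-, and -0.18 and -0.06 in DKO. WT was thus the highest genotype, and Ppara -/- minus WT was -0.5 or lower at 248 of the 291 intervals. The class higher with Ppara ran the other way, from -0.61 and -0.85 in WT to 0.69 and 0.46 in Cpt2 L-/-, with 0.17 and 0.12 in Ppara -/- and 0.13 and 0.02 in DKO. There 182 of the 245 intervals were higher by at least 0.5 in Ppara -/- than in WT, and 58 differed by less than 0.5. The Ppara -/- and WT livers both enter the interaction value, so this shift is part of what the ranking selects and is given as a description. Left out 1 library at a time, the median of Ppara -/- minus WT stayed between -1.05 and -0.80 for the class lower with Ppara and between 0.83 and 1.05 for the class higher with it.

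The opposed classes had a different shape. Intervals higher with Ppara and lower without were at -0.41 and -0.68 in WT, 0.30 and 0.13 in Cpt2 L-/-, -0.02 and 0.11 in Ppara -/-, and -0.56 and -0.83 in DKO. Both single knockouts were above WT and DKO, and the median of DKO minus WT was -0.07. Cpt2 L-/- above WT and DKO below Ppara -/- define this class, so this shape is given as a description. Those lower with and higher without had a median DKO minus WT of -0.30, with Ppara -/- minus WT at -0.95.

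Genes of fatty acid handling lay toward the lower end. Over the 37 intervals near genes of fatty acid uptake, binding and activation (17 of 20 genes had a ranked interval within 50000 bases), the median interaction was -0.42. Of these values 25 (67.6%) were below 0, against 47.7% of all ranked intervals, and 7 (18.9%) were at -1 or less, against 4.13%. Over the 36 near lipid droplet and lipolysis genes the median was -0.49, with 5 (13.9%) at -1 or less. Over the 75 near Ppara targets of fatty acid oxidation it was -0.26, with 7 (9.33%) at -1 or less. None of these 3 lists, which share genes such as Cidec, Slc27a2 and Fabp1, held an interval at 1 or above, against 3.66% of all. The same held for the lists of Nfe2l2 antioxidant genes (48 intervals), xenobiotic and steroid P450 (50), and urea cycle and amino acid breakdown (57). Among intervals over no start site, where the median of all was -0.10, the medians were -0.57 for uptake, -0.59 for droplets and -0.53 for oxidation. The lowest and highest medians with 1 library left out were -0.53 and -0.29 for uptake, -0.59 and -0.28 for droplets, and -0.31 and -0.20 for oxidation. Within 5000 bases of a gene the medians were -0.42 for uptake (30 intervals), -0.34 for droplets (31) and -0.11 for oxidation (57), and 3 of those 57 were at -1 or less. No interval of these lists passed the interaction test.

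Crot, the peroxisomal carnitine octanoyltransferase that hands shortened fatty acids to mitochondria, gave the lowest value among the Ppara targets. Its interval, 36823 bases from the gene, had folds of 8.83 and 7.30 (WT), 25.4 and 14.1 (Cpt2 L-/-), 7.75 and 17.0 (Ppara -/-) and 7.05 and 8.47 (DKO). Cpt2 L-/- stood above WT, and the 2 Ppara -/- livers were far apart. Its interaction was -1.89 (SE 0.48, limma adjusted p = 0.127).

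At Fabp1, the liver fatty acid binding protein, an interval 14279 bases from the gene had folds of 9.30 and 10.7 (WT), 15.4 and 20.9 (Cpt2 L-/-), 8.72 and 10.6 (Ppara -/-) and 6.23 and 7.30 (DKO). Cpt2 L-/- was the highest genotype and DKO the lowest, with neither overlapping its partner. The interaction was -1.45 (SE 0.37, adjusted p = 0.124), and H3K4me1 at the same interval gave -0.83 (SE 0.40, adjusted p = 1 by limma).

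Bdh1, the ketone body enzyme that makes 3-hydroxybutyrate, had an interval 23231 bases away with folds of 5.50 and 6.91 (WT), 15.4 and 17.5 (Cpt2 L-/-), 9 and 7.12 (Ppara -/-) and 5.83 and 8.12 (DKO). Cpt2 L-/- rose above WT by 1.19 (SE 0.27, adjusted p = 0.0158), DKO minus Ppara -/- was -0.53 (SE 0.27), which was not called, and the interaction was -1.72 (SE 0.39, adjusted p = 0.105). A second interval near Bdh1, over the start of Gm52238, was higher without Ppara, with an interaction of 1.21 (SE 0.65). Of the 19 intervals near ketone genes 3 were at -1 or less and 2 at 1 or above, so this list held both directions.

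Of the 36 intervals of the droplet list, 3 were in the class higher with Ppara, at Cidec, Lipa and Hsd17b13. The interval near Cidec, which encodes a droplet fusion protein, had folds of 12.9 and 10.0 (WT), 33.0 and 27.4 (Cpt2 L-/-), 18.0 and 17.0 (Ppara -/-) and 16.1 and 22.2 (DKO). Cpt2 L-/- rose by 1.18 over WT (adjusted p = 0.00815), and DKO and Ppara -/- overlapped at an intermediate level, for an interaction of -1.38 (SE 0.32, adjusted p = 0.114). Lipa, lysosomal acid lipase, had 7.06 and 7.33 in WT, 22.9 and 16.1 in Cpt2 L-/-, 14.4 and 17.4 in Ppara -/-, and 18.2 and 15.8 in DKO, with WT below every knockout. Cpt2 L-/- rose there by 1.19 (adjusted p = 0.00955), and the interaction was -1.40 (SE 0.34). Hsd17b13, a droplet-bound hydroxysteroid dehydrogenase, gave an interaction of -1.18 (SE 0.34) within the gene, where Cpt2 L-/- rose by 1.05 (adjusted p = 0.0152). At Cidec and Lipa both WT livers lay below all 6 knockout livers, and the same held at Hsd17b13, where WT was at 6.60 and 7.09 and the others at 13.4 to 20.5.

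Fatty acid uptake genes in the same class split by what Ppara loss did. Near Cd36, the fatty acid translocase, folds were 6.18 and 4.18 in WT, 14.7 and 13.8 in Cpt2 L-/-, 5.91 and 5.17 in Ppara -/-, and 7 and 8 in DKO, so Cpt2 L-/- stood alone above the rest. Near Slc27a2, a very long chain acyl-CoA synthetase, they were 9.38 and 10.3, 20.3 and 26.3, 3.23 and 4.67, and 6.12 and 3.60 in the same order, so both genotypes without Ppara lay below WT. Lipc, hepatic lipase, had 3.83 and 4.42 in WT, against 10.1 and 9.25, 8.06 and 9.17, and 9.35 and 10.8, with WT alone low. Cpt2 L-/- rose over WT at Cd36 (1.26, adjusted p = 0.0171) and Lipc (1.01, adjusted p = 0.0197). At Slc27a2 the difference of 1.01 had an adjusted p of 0.0567 by limma.

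**Figure D3:**
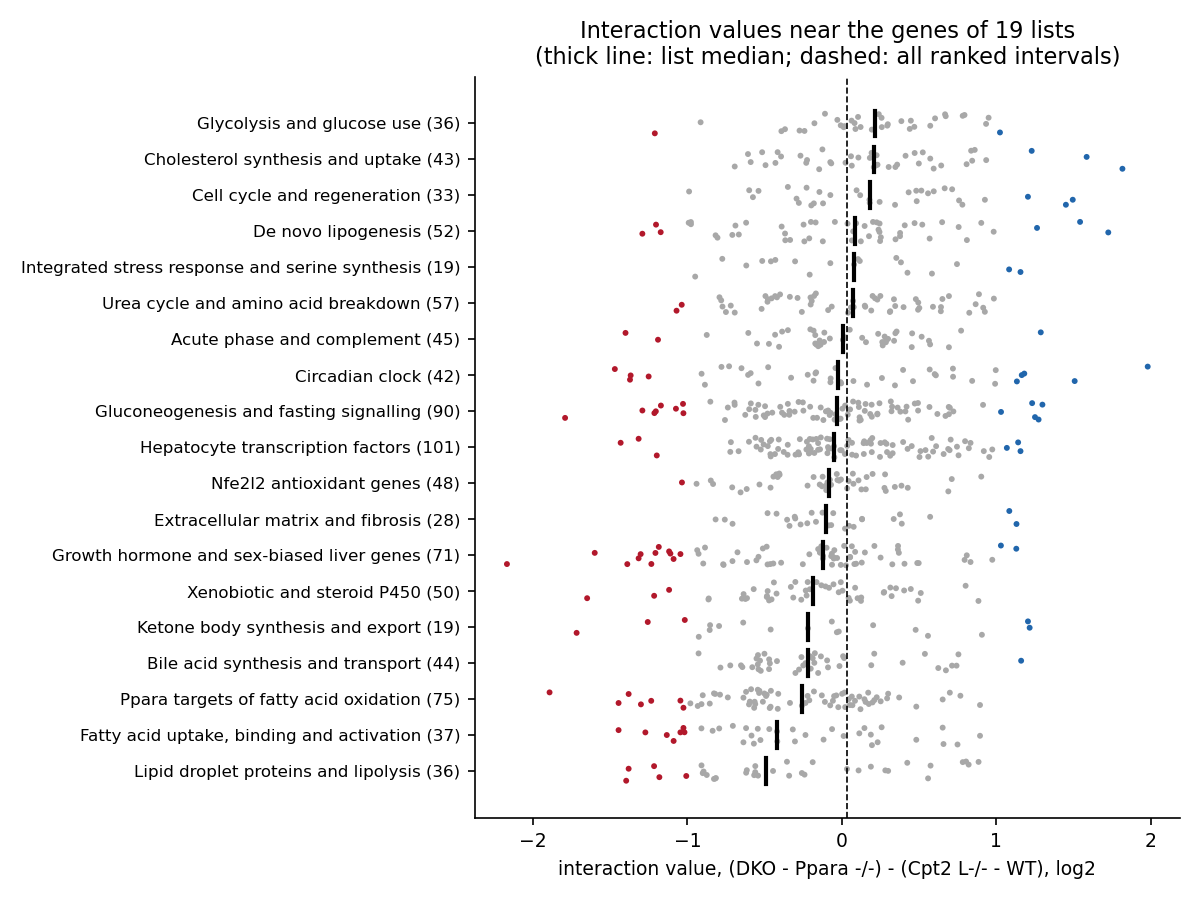
Interaction values (log2) of every ranked interval within 50000 bases of a gene of 19 lists, 1 row per list with its number of intervals; thick lines are list medians, the dashed line is the median of all ranked intervals, and colours mark values at -1 or less and 1 or above. At this distance the lists of droplets, fatty acid uptake and Ppara targets have the lowest medians. No point of theirs is at 1 or above, nor is any in the rows of Nfe2l2 antioxidant, P450 and urea cycle genes.

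Lipid synthesis and cholesterol export genes met at the upper end, beside the promoters printed above. Srebf1, the transcription factor that drives fatty acid synthesis, had folds of 22.2 and 18.5 (WT), 4.14 and 7.5 (Cpt2 L-/-), 5.83 and 7.5 (Ppara -/-) and 6.80 and 6 (DKO) at chr11:60205182-60211694. WT alone was high. Cpt2 L-/- fell by 2.09 (SE 0.33, adjusted p = 0.0048), DKO minus Ppara -/- was -0.36 (SE 0.33), and the interaction was 1.73 (SE 0.47, limma adjusted p = 0.138).

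Fasn, the fatty acid synthase itself, had 20.3 and 32.2 in WT, 8.29 and 11.8 in Cpt2 L-/-, 7.75 and 13.7 in Ppara -/-, and 12.2 and 12.5 in DKO. Again the 6 knockout livers lay below both WT livers. Cpt2 L-/- fell by 1.60 (adjusted p = 0.00685) and the interaction was 1.54 (SE 0.42, adjusted p = 0.138). Abca1, the exporter of cholesterol to apolipoprotein A-I, had 26.0 and 41.4, 16.4 and 13.9, 12.5 and 11.5, and 17.2 and 24.7 in the same order, and WT did not overlap the others. Its interaction was 1.82 (SE 0.32, adjusted p = 0.0774), with Cpt2 L-/- down by 1.34 (adjusted p = 0.00529). Scarb1, the receptor for high-density lipoprotein, had 16.6 and 16.7 in WT, 7.77 and 4.80 in Cpt2 L-/-, 11.7 and 14.2 in Ppara -/-, and 12.1 and 18.8 in DKO. There Cpt2 L-/- was the low genotype, by 1.67 below WT (adjusted p = 0.0048), and the interaction was 1.59 (SE 0.38, adjusted p = 0.12).

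Across the lists these genes belong to, the values were mixed. Over 43 intervals near cholesterol synthesis and uptake genes the median interaction was 0.21, with 3 (6.98%) at 1 or above and 0 at -1 or less. That median was 0.09 without WT replicate 2 and 0.30 without WT replicate 1. Of these intervals 12 fell in Cpt2 L-/- against WT and 0 rose, where 7.69% of all ranked intervals fell and 5.82% rose, and with the width covariate no interval was called. De novo lipogenesis had a median of 0.08 over 52 intervals (-0.05 to 0.17 with 1 library left out), with 3 at each extreme. Fads1 and Acacb, a fatty acid desaturase and a carboxylase that makes malonyl-CoA, were on the negative side at -1.29 (SE 0.30) and -1.20 (SE 0.40). The interval 33705 bases from Fads1 had folds of 8.14 and 7.5 in WT and 16.9 to 22.8 in the 6 knockout livers.

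Glucose genes held both directions within one gene. Pcx, the pyruvate carboxylase that starts gluconeogenesis, had an interval inside the gene at 7.40 and 8.11 in WT, 33.2 and 22.3 in Cpt2 L-/-, 12.8 and 18.5 in Ppara -/-, and 15.2 and 18.0 in DKO. Every knockout liver was above WT, and the interaction was -1.79 (SE 0.33, limma adjusted p = 0.0774). Another interval inside the gene had 11.0 and 7.75, 4.44 and 3.88, 6.33 and 8.50, and 7.14 and 10.4, with Cpt2 L-/- lowest and an interaction of 1.30 (SE 0.42, adjusted p = 0.184). The start-site interval of Pcx was also lower with Ppara, at 1.25 (SE 0.45). The list of gluconeogenesis and fasting genes had a median of -0.03 over 90 intervals. The 36 intervals of glycolysis genes had a median of 0.22 (0.08 to 0.31 with 1 library left out). Of them 10 (27.8%) were below 0, against 47.7% of all ranked intervals.

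Clock genes held both directions, and growth hormone genes had more values at -1 or less than at 1 or above. Nfil3, a repressor of the circadian clock, was lower with Ppara, with folds of 22.7 and 26.6 (WT), 13.5 and 6.27 (Cpt2 L-/-), 10.3 and 15.8 (Ppara -/-) and 17.0 and 23.5 (DKO). Its interaction was 1.98 (SE 0.41, adjusted p = 0.0882). Rora, an activator of the clock, had intervals in both ends of the ranking, at -1.47 (SE 0.34) and 1.51 (SE 0.38), the second being 0.69 with the mean in place of the highest fold. Of 71 intervals near growth hormone and sex-biased genes 12 (16.9%) were at -1 or less and 2 (2.82%) at 1 or above. The median of the 71 was -0.12 (-0.37 to -0.03 with 1 library left out, lowest without WT replicate 1). They include Mup21, a major urinary protein, at -2.17 (SE 0.69), whose WT folds of 21.4 and 5 were far apart; the value was -1.02 without WT replicate 2. They also include Elovl3, an elongase of very long chain fatty acids, at -1.30 (SE 0.38), with 5.43 and 8.48 in WT against 22.0 and 22.8 in Cpt2 L-/-. Within 5000 bases of a gene the growth hormone list had 55 intervals, 6 of them at -1 or less and 2 at 1 or above.

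**Figure D4:**
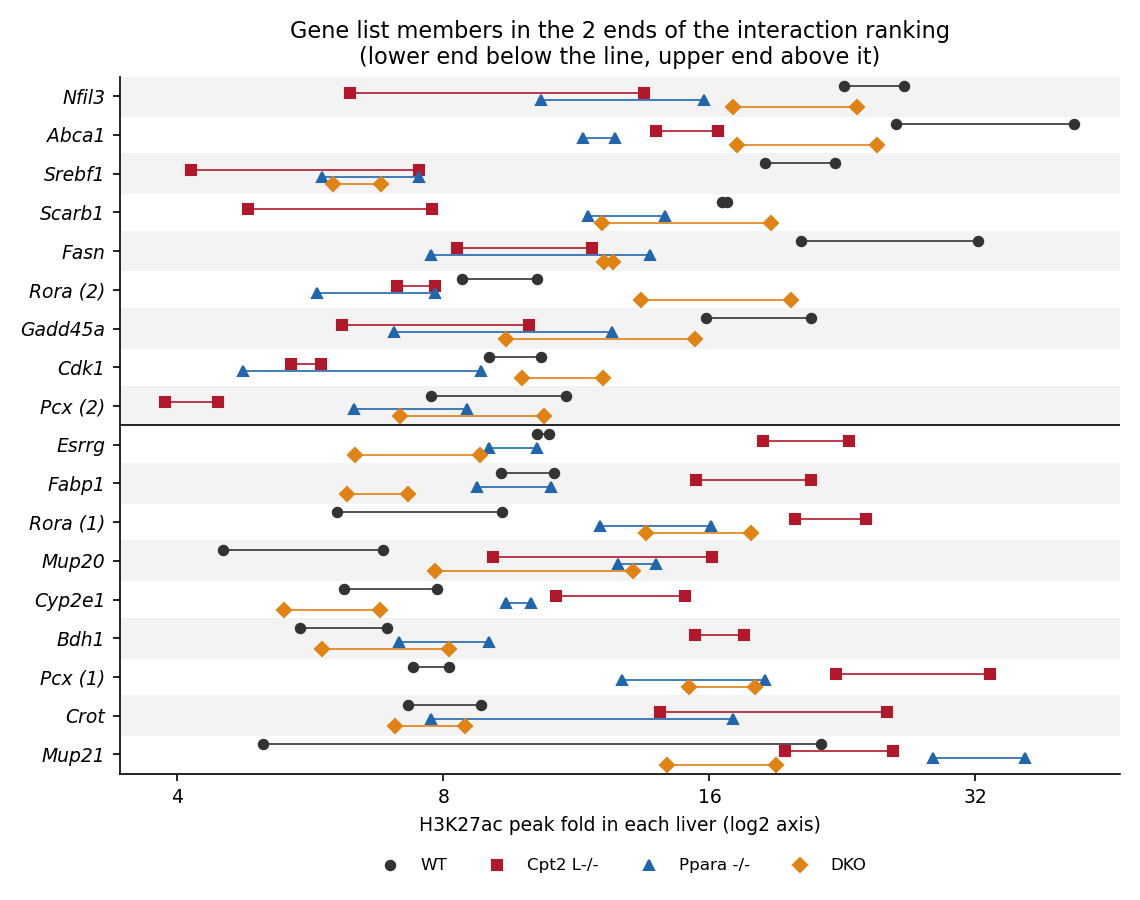
H3K27ac peak fold (log2 axis) in each liver at the 18 intervals in either end that lie near a gene of a list, ordered by interaction value; a line joins the 2 livers of a genotype. Pcx and Rora appear with 2 intervals each. Above the line both Cpt2 L-/- livers lie below both WT livers, and below it they lie above them, except at Mup21, where WT spreads from 5 to 21.4.

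The genes with the largest interaction on the side with Ppara belong to no one list. The lowest value of the ranking, -2.43, was 341432 bases from the nearest gene. Among those higher, besides Rpia, were Sntb1, a syntrophin of the dystrophin complex, at -2.36 (SE 0.40) and Usp48, a deubiquitinase, at -2.17 (SE 0.51). Dhrs4, a peroxisomal dehydrogenase/reductase of retinoids, was at -2.13 (SE 0.48), and Amn1 at -2.07 (SE 0.39). At Dhrs4 folds were 8.08 and 7.36 in WT, 29.8 and 26.1 in Cpt2 L-/-, 6.82 and 5.09 in Ppara -/-, and 7 and 3.82 in DKO. Cpt2 L-/- stood alone above the rest. At Sntb1 Cpt2 L-/- was at 22.8 and 18.8, against 4 to 10.8 in the other 6 livers.

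Among those lower with Ppara, Reps2, a partner of endocytic adaptors, had the highest interaction of the ranking, 2.39 (SE 0.49), with start-site folds of 15.6 and 20.2 in WT and 4.33 to 11.8 in the other livers. Antxr2, a collagen receptor, was at 2.16 (SE 0.39), and Ino80d, a subunit of a chromatin remodeller, at 2.14 (SE 0.54), or 1.42 without Ppara -/- replicate 2. Ppp1r12a, the targeting subunit of myosin phosphatase, had 32.4 and 52.7 in WT, 14.2 and 15 in Cpt2 L-/-, 10.8 and 12.8 in Ppara -/-, and 16.2 and 21.4 in DKO. WT was again above every knockout, and the interaction was 2.08 (SE 0.31, adjusted p = 0.0695), 1 of the 2 intervals with the next lowest adjusted p after Rpia. Lonrf1, a RING finger protein, was at 2.05 (SE 0.45).

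Of the named intervals in the class lower without Ppara, the lowest interaction was at Tmprss11e, a membrane serine protease. Its folds were 5 and 4.5 in WT, 7 and 6.14 in Cpt2 L-/-, 10.2 and 9.17 in Ppara -/-, and 3.70 and 3.10 in DKO. Ppara -/- was the highest and DKO the lowest genotype. DKO minus Ppara -/- was -1.82 (SE 0.28, adjusted p = 0.0606), and the interaction -2.06 (SE 0.39, adjusted p = 0.0774).

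Tyw5, an enzyme of tRNA modification, at -1.64 (SE 0.41), Cdk8, the Mediator kinase, at -1.61 (SE 0.33), Gm4951 at -1.55 (SE 0.44), Nt5c2, a purine nucleotidase, at -1.54 (SE 0.48) and Zfp825, a zinc finger protein, at -1.54 (SE 0.55) were also in this class. The value at Zfp825 was -0.86 without Ppara -/- replicate 1. C3, Slc2a2 and Cyp2d9 joined them from the lists. At C3, the central complement component, folds were 5.85 and 8.53 in WT, 7.73 and 8.97 in Cpt2 L-/-, 17.7 and 15.5 in Ppara -/-, and 6.84 and 8.97 in DKO, so Ppara -/- alone was high. Slc2a2, the hepatocyte glucose transporter, had 5.70 and 8.57, 5.75 and 7.88, 7.29 and 11.1, and 3.56 and 4.44 in that order, with DKO lowest. Cyp2d9, a male-biased cytochrome P450, had 19.3 and 22.3, 29.0 and 23.2, 7.74 and 12.1, and 7 and 5, so both genotypes without Ppara were low and DKO lowest.

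Pex16, which builds peroxisomal membranes, led the 13 intervals higher without Ppara. At the promoter printed above its folds were 13.2 and 16 in WT, 13.4 and 14.4 in Cpt2 L-/-, 7.07 and 8.29 in Ppara -/-, and 22.5 and 23.4 in DKO. Ppara -/- was low, DKO high, and the 4 livers with Ppara lay between them. DKO minus Ppara -/- was 1.27 (SE 0.22, adjusted p = 0.0761) and the interaction 1.56 (SE 0.31, adjusted p = 0.0837). Others in the class were Krt10, a keratin, at 1.30 (SE 0.34), Nudcd2 at 1.23 (SE 0.49), Grk6, a kinase of G protein-coupled receptors, at 1.14 (SE 0.44) and Ms4a8a at 1.11 (SE 0.36). Without WT replicate 2 the values at Nudcd2 and Grk6 were 0.63 and 0.64.

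Of the opposed intervals higher with Ppara and lower without, Tbce, a tubulin folding cofactor, was at -2.23 (SE 0.52) and Phlpp1, a phosphatase of Akt, at -2.22 (SE 0.47). Cyp2e1, the ethanol-oxidising P450, had an interval 15030 bases away with 7.88 and 6.18 in WT, 15 and 10.7 in Cpt2 L-/-, 10.1 and 9.43 in Ppara -/-, and 5.29 and 6.78 in DKO. Both single knockouts were above WT and DKO, and the interaction was -1.65 (SE 0.39, adjusted p = 0.12), or -0.66 with the mean fold. Esrrg, an orphan nuclear receptor, was at -1.43 (SE 0.38) and Mup20 at -1.60 (SE 0.51). Of the reverse kind were Lcorl, a transcriptional cofactor, at 2.26 (SE 0.39), Asap1, an activator of Arf GTPases, at 2.18 (SE 0.37), and S1pr5, a sphingosine 1-phosphate receptor, at 2.18 (SE 0.43). At Asap1 folds were 14.0 and 20.2 in WT, 9.38 and 9.17 in Cpt2 L-/-, 5.50 and 4.33 in Ppara -/-, and 11.4 and 14.7 in DKO, so the single knockouts were lowest.

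Over 33 intervals near cell cycle genes the median interaction was 0.18, with 3 (9.09%) at 1 or above, against 3.66% of all, and 0 at -1 or less. Cdk1, the mitotic kinase, at 1.45 (SE 0.44) and Gadd45a, a growth arrest gene, at 1.5 (SE 0.46) were lower with Ppara. The interval over the Gadd45a start had 15.9 and 20.9 in WT and 6.14 to 15.4 in the other livers.

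The classes differed in where they lay in the genome and in marks the ranking did not use. Of all ranked intervals 37.1% covered a start site, against 45.7% of those lower with Ppara, 52.4% of those lower with and higher without, 12.7% of those higher with, 8.64% of those higher with and lower without, and 9.43% of those lower without. An H3K9ac peak, another acetylation of active promoters measured in 1 WT and 1 Cpt2 L-/- liver, lay on 94.2% (WT) and 88.3% (Cpt2 L-/-) of the class lower with Ppara. The class higher with Ppara had 23.7% and 36.3%, and all ranked intervals 72.8% and 71.7%. A peak in the Cpt2 L-/- library without one in WT was found at 16.3% of the class higher with Ppara and 4.72% of all. Among all intervals over no start site it was found at 6.8%. The reverse was found at 6.53% of the class lower with Ppara, 5.87% of all and 8.5% of all over no start site. In the class lower without Ppara it was found at 22.6% (12 of 53). Both H3K9ac livers had Ppara, so that share does not measure Cpt2 loss without Ppara. With 1 H3K9ac library per genotype these shares have no replicate check.

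The start-site share moved with 1 library. Intervals over a start site exceeded the rest by a median of 0.40 and 0.76 in the 2 WT livers, 0.35 and 0.44 in Cpt2 L-/-, 0.27 and 0.30 in Ppara -/-, and 0.40 and 0.49 in DKO. WT replicate 2 was apart from the other 7. The median interaction was 0.21 over start sites and -0.10 elsewhere, a gap of 0.31, and the gap was 0.15 without WT replicate 2 and 0.49 without WT replicate 1. Without WT replicate 2 the class lower with Ppara had 258 intervals, 37.2% of them over a start site, close to the 37.1% of all, while the class higher with Ppara had 14.8%. Over all 6 classes 522 of the 846 intervals kept their class without that library. The lean of the class lower with Ppara toward start sites thus rests on WT replicate 2, and that of the class higher with Ppara away from them was present with and without it.

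**Figure D5:**
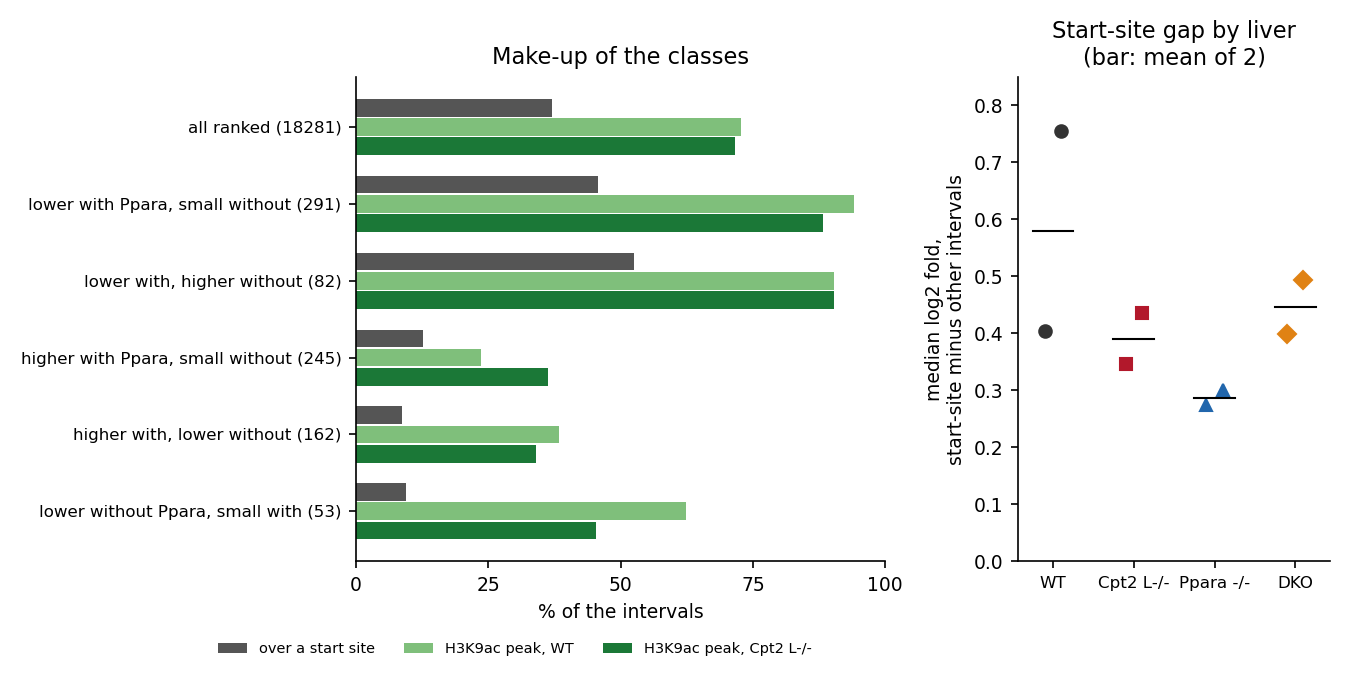
Left, share of intervals (%) over a start site and with an H3K9ac peak in the WT or Cpt2 L-/- library, for all ranked intervals and 5 classes (counts in brackets). Right, median log2 fold of start-site intervals minus that of the others in each liver (bars, mean of 2), where WT replicate 2 lies above the other 7 at 0.76.

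Promoters inside the 2 sides of the ranking differed in base composition. Over the 8046 promoters in ranked intervals the median content of G and C was 61.3%. It was 65.3% over the 386 promoters in intervals at 1 or above and 49.3% over the 81 at -1 or less, and the ratio of observed to expected CpG was 0.829 and 0.278, against 0.775 over all. Without WT replicate 2 these were 64.7% and 54% for G and C and 0.783 and 0.545 for CpG. The motif TGTTTAC, bound by Foxa factors, was in 12.3% of the promoters at -1 or less, 2.59% of those at 1 or above and 3.09% of all, searched on both strands. CCGGAAG, bound by Ets factors, was in 3.7%, 9.84% and 19.4%. Without WT replicate 2 the shares at -1 or less were 12.8% for each of these motifs. The shares of CCAAT were 40.7%, 36.5% and 35.9%, and those of CACGTG 7.41%, 10.9% and 10.3%. In the same order, TTANGTAA (Cebp and Nfil3) was in 6.17%, 0.777% and 1.59%, and TGANTCA (AP-1) in 9.88%, 4.92% and 5.02%. Without WT replicate 2 their shares at -1 or less were 2.33% and 8.14%. These were among 12 motifs searched. How far the difference in G and C content accounts for the motif shares was not tested. A match is a description of letters, not a site of binding.

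H3K4me1, measured in other libraries of the same livers that share a pooled input with H3K27ac in the labels, leaned the same way at the classes by small amounts. Its interaction passed the test at 0 of 9576 ranked intervals with H3K4me1 peaks in all 8 libraries (0%), by limma, and 246 (2.57%) had an unadjusted p under 0.05. The median H3K4me1 interaction was 0.02 over all of these, 0.14 over 156 intervals lower with Ppara, and -0.18 over 134 higher with Ppara. It was above 0 at 63.5% and 28.4% of these, and at 51.9% of all. In the lower end the median was -0.27, with 94 of 121 values below 0, and in the upper end 0.14, with 57 of 88 above 0. The livers are the same for both marks, as the animal numbers in the peak names show. These numbers run from 9548 to 9589 in the livers with Ppara and from 6833 to 6848 in those without. What the 2 series stand for is not given. A difference between them cannot be told apart from Ppara loss.

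Markers of liver cell types had ranked intervals mostly for hepatocytes and endothelial cells. This held for 9 of 10 hepatocyte markers and 10 of 10 endothelial markers, against 2 of 10 for cholangiocytes, 2 of 12 for stellate cells, 3 of 12 for Kupffer cells and 0 of 12 for lymphocytes and neutrophils. The median interaction was 0.07 over 29 hepatocyte intervals (-0.06 without WT replicate 1) and -0.34 over 35 endothelial intervals. Of the endothelial values 27 (77.1%) were below 0, against 47.7% of all ranked intervals. It was -0.09 for the endothelial intervals without WT replicate 2. Of these 35 intervals 7 rose in Cpt2 L-/- against WT and 0 fell, and 0 were called with the width covariate. Of all ranked intervals 5.82% rose and 7.69% fell. The median of that effect was 0.45 over the 35 intervals and -0.03 over all. In the class higher with Ppara lay 1 of the endothelial intervals, at Oit3. Its folds were 8.50 and 8.33 (WT), 23.2 and 16.9 (Cpt2 L-/-), 13.2 and 13.6 (Ppara -/-) and 16.9 and 15.2 (DKO). The part of endothelial cells in the values above was not tested.

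The 2 targeted genes were not in a class. At the Cpt2 start-site interval folds were 11.5 and 16.9 in WT, 18.7 and 23.2 in Cpt2 L-/-, 8.75 and 9.80 in Ppara -/-, and 9.33 and 12.2 in DKO. H3K27ac at a promoter need not be lost when an exon is deleted, so this does not check the genotypes. At Ppara they were 16.2 and 21.1, 25.3 and 22.9, 20.2 and 28.4, and 32.3 and 43.9, and the interaction of 0.19 (SE 0.26) was -0.65 with the mean fold.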

How the data were processed

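Per the submitters' processing notes, reads were aligned with BWA to mm10 and peaks were called with MACS2 2.1.0. The deposited narrow peak lists, 1 per library, give a fold over local background (a ratio, the authors' value), a -log10 q-value and no read counts. The animal numbers in the headers' peak names were shared between marks. Peak names of 1 Ppara -/- H3K27ac library carry another build label, and its coordinates were used as given.

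Each interval of the authors' consensus list took the highest fold of the peaks overlapping it by at least 1 base. The log2 of the fold was centred per library. Intervals called in all 8 libraries were fitted with limma 3.58.1 in R 4.3.3 (4 genotype means, trended empirical Bayes, Benjamini-Hochberg over all intervals, threshold 0.05), tested on simulated data. H3K4me1 was treated alike, and H3K9ac was used as presence of a peak. The labels do not say whether replicate numbers pair livers, and the main fit did not treat them as pairs. Deviations of same-numbered livers correlated between -0.0649 and 0.172.

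An interval counts for the nearest protein-coding gene within 50000 bases, and names and promoters come from RefSeq (GRCm38.p6). Named intervals were the 6 largest by interaction value of each class on one side of Ppara and the 3 largest of each opposed class, with 1 sign in all 16 choices of 1 liver per genotype. To these were added calls of the interaction, list members in either end, Cpt2 and Ppara. Further members of the lists that fall in a class, the Slc2a9 interval and the lowest interval were chosen after their values were seen. Of the intervals this rule names, 2 are not reported here. The ranking, the 19 pathway lists and the 6 cell type lists were chosen with earlier results of these data known. Alternatives covered scaling, fold summary, peak threshold, overlap, filled-in libraries, class limits, a replicate block and each library left out; class make-up and list medians under left-out libraries, and classes with the width covariate, were added after seeing the data.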

Additional observations from a re-analysis of the deposited data

Results flagged for a closer look

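The H3K27ac interval near Rpia stood out because the effect of Cpt2 loss differed between livers with and without Ppara by the test of the difference itself. Its interaction was -2.16 (SE 0.28, limma adjusted p = 0.0421), with 2.41 between Cpt2 L-/- and WT and 0.25 between DKO and Ppara -/-. Over the alternatives tried its adjusted p ran from 0.00267 to 0.201. It had no value when peaks needed a -log10 q of 10, where 38 of the 48 named intervals had one. Reps2, Sntb1, Usp48, Tmprss11e, Tbce, Phlpp1, Srebf1, Mup20 and the Pcx interval at 1.30 also had none.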

How the results depend on the processing

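With 2 livers per genotype and no read counts, the number of calls moved with most choices, and the cause was not tested. The interaction was called by limma at 1 interval, at 8 without centring (5 higher, 3 lower), and at 6319 of 43051 when uncalled libraries were filled in with their lowest fold. It was called at 0 with the mean fold (2547 with an unadjusted p under 0.05), with a -log10 q of at least 10 (2536), with the width covariate (1888), with the replicate block (3015) and with an empirical Bayes step without trend (2671). Leaving out 1 library gave 0 to 7 calls, 7 without WT replicate 1. Under the replicate block the Rpia interval had an adjusted p of 0.0509, and no other call changed its side among the named intervals. Cpt2 L-/- minus WT was called at 2469 intervals, at 11898 when filled in, at 0 with the width covariate (1418 unadjusted), and at 167 to 2686 with 1 library left out. DKO minus Ppara -/- was called at 1 interval, 14 without centring, 2 with quantile normalization, 0 with the mean fold (2466 unadjusted), 4321 when filled in, 0 with the width covariate (1642 unadjusted), and 0 to 4 with 1 library left out. The H3K4me1 interaction stayed at 0 calls in each of its alternatives. The 846 intervals in a class became 9103 when filled in, 3599 with limits of 0.6 and 0.3, 1951 by limma's p, and 747 to 1690 with 1 library left out. Of 16 list genes in the ends 10 remained within 5000 bases. Among 48 named intervals the value at Ppara changed sign, to -0.00304 with quantile normalization and -0.65 with the mean fold.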
